A study of Drosophila melanogaster with 4 samples.

Results

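The genes of chitin synthesis, modification and breakdown were followed in sorted cone cells (CCs) of the Drosophila retina at 3 stages and in adult photoreceptors (PRs). Members were chosen by name: every gene with a Cht, Cda or Idgf symbol followed by a digit, every obst gene, and kkv, knk, rtv, mmy, serp, verm and Gasp. This gave 33 of the 14935 genes in the deposited table. They comprised 4 genes of synthesis and assembly, 5 deacetylases, 10 chitinases, 5 Idgf genes and 9 genes of chitin-binding proteins.

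The study examined CCs, also called Semper cells, as glia-like support cells of the PRs that also secrete the lens. RNA was sequenced from 1 library for each of 4 sorted cell populations. Larval CCs and pupal CCs, taken from wandering larvae and at 25 h after puparium formation, were GFP-positive cells of sev-; prosPSG-GFP; TM2/TM6B animals, which lack the R7 photoreceptor, a cell that also uses pros. Adult CCs came from yw67; sp/CyO; TM2/TM6B flies at 1 to 2 days after eclosion. They were sorted with antibodies to Fas3 and to the 22C10 antigen. Adult PRs were the RFP-positive, GFP-negative cells of prosPSG-GFP adults carrying the 3xP3-RFP transgene, also at 1 to 2 days after eclosion. Each library pooled the eye tissue of 45 to 75 animals. Pupal and larval CCs thus shared genotype and sort and differed in stage. Adult and pupal CCs differed in stage, genotype and sort at once, and adult CCs and adult PRs in genotype, sort and cell type, so that these cannot be told apart.

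Chitin is a polymer of N-acetylglucosamine that stiffens cuticle, tracheal linings and the corneal lens. Chitin synthase extrudes it at the apical membrane from UDP-N-acetylglucosamine, assembly proteins and deacetylases order the fibres, chitin-binding proteins coat them, and chitinases cut them when old matrix is removed at a moult. In the eye the CCs, with the primary pigment cells, secrete the lens of each facet during pupal life. The Idgf proteins are related to chitinases but lack the catalytic activity, and act as secreted growth factors.

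Values were TMM-normalised read counts, called units here, given on a linear scale or as their log2. Genes at 1 unit or less are listed at 0. Units are not divided by gene length, so levels were compared between genes only per kb of annotated exon. With 1 library per condition nothing could be tested and no value has a replicate error. A gene was instead called higher or lower when log2(value + 4) differed by 2 or more, which is 4-fold once 4 units are added to both values, with at least 32 units in the higher library. The library totals were 1479271 units for larval CCs, 1827553 for pupal CCs, 3253648 for adult CCs and 2653155 for adult PRs. By the step between low values 32 units stood for 53.6, 50.5, 37.5 and 19.3 reads in that order, but only 38.3 to 65.0% of low values lay within 0.02 units of whole steps, so these read numbers are rough and no counting interval is given. In these bulk samples fewer cells of a type and less RNA per cell cannot be told apart.

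The labels were set against marker genes. Photoreceptor markers (9 genes) summed to 289704 units in adult PRs and to 5.68 to 100 units in the 3 CC libraries. Cone cell and lens markers (7 genes) summed to 223945 units in adult CCs, yet also to 5436 units in adult PRs, where retinin, a lens protein gene, had 3439 units, against 188567 units in adult CCs. Pigment cell markers (6 genes) summed to 239 units for larval CCs, 282 for pupal CCs, 96665 for adult CCs and 12874 for adult PRs. Pdh alone gave 94871 units of this sum in adult CCs and 11406 in adult PRs. Over pupal CCs, 4 of the 6 were called higher in adult CCs (Pdh, pr, santa-maria and wgn) and cn was called lower, with 5.78 units in adult CCs, against 44.5 in pupal CCs.

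Most chitin genes at 32 units in pupal CCs were also at 32 units in the other CC libraries, while the levels of several differed by the rule. Of 15 genes at 32 units in pupal CCs, 14 were also among the 15 of larval CCs, and of the 16 in adult CCs, 12 were among the 15 of pupal CCs. The same overlap over all genes was not counted, so these counts only describe the members. The synthase gene kkv and the deacetylase genes serp, verm and Cda4 were highest in larval CCs. A single gene, the chitinase gene Cht5, took 72.5% of all chitin gene units in pupal CCs. Adult CCs were led by Gasp, which encodes a peritrophin-type chitin-binding protein, with 56.2% of the units. In adult PRs the Idgf genes led, with 40.7% of a far smaller sum. Divided by exon length these shares were 83.2% for Cht5 in pupal CCs, 68.1% for Gasp in adult CCs and 53.1% for the Idgf genes in adult PRs.

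The signal summed over the 33 genes reached 6060 units for larval CCs, 12035.5 for pupal CCs, 9552 for adult CCs and 1274 for adult PRs. This was 0.410%, 0.659%, 0.294% and 0.0480% of the whole library in that order. Without Cht5 the sum was 6039 units for larval CCs, 3314 for pupal CCs, 9540 for adult CCs and 1261 for adult PRs. The pupal maximum thus rested on that gene.

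**Figure D1:**
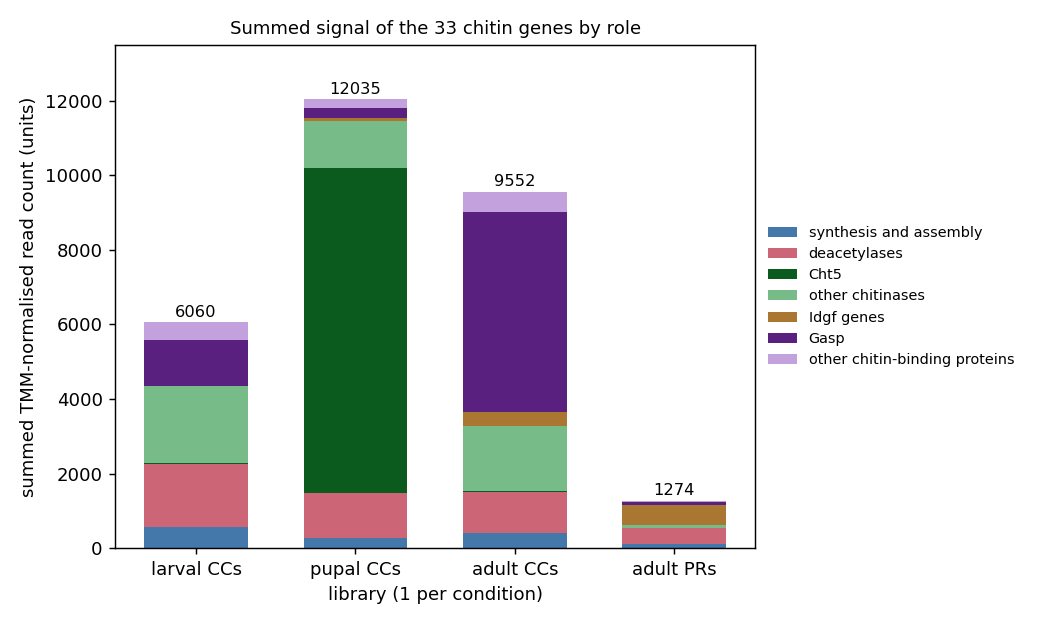
Summed TMM-normalised read count of the 33 chitin genes (y axis, units) in each of the 4 libraries, split by role with Cht5 and Gasp drawn apart. Cht5 fills 72.5% of the pupal bar and Gasp 56.2% of the adult CC bar, and the adult PR bar reaches 1274 units.

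Of the 33 genes, 20 reached 32 units in at least 1 library, and 5 did so in all 4. The number at 32 units or more was 15 for larval CCs, 15 for pupal CCs, 16 for adult CCs and 8 for adult PRs. As shares of the members these were 45.5%, 45.5%, 48.5% and 24.2%, against 34.3%, 38.7%, 36.7% and 33.1% of all genes. The other 13 stayed under 32 units everywhere, and 3 of these (Cda9, Cht9 and obst-I) were listed at 0 in all libraries.

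**Figure D2:**
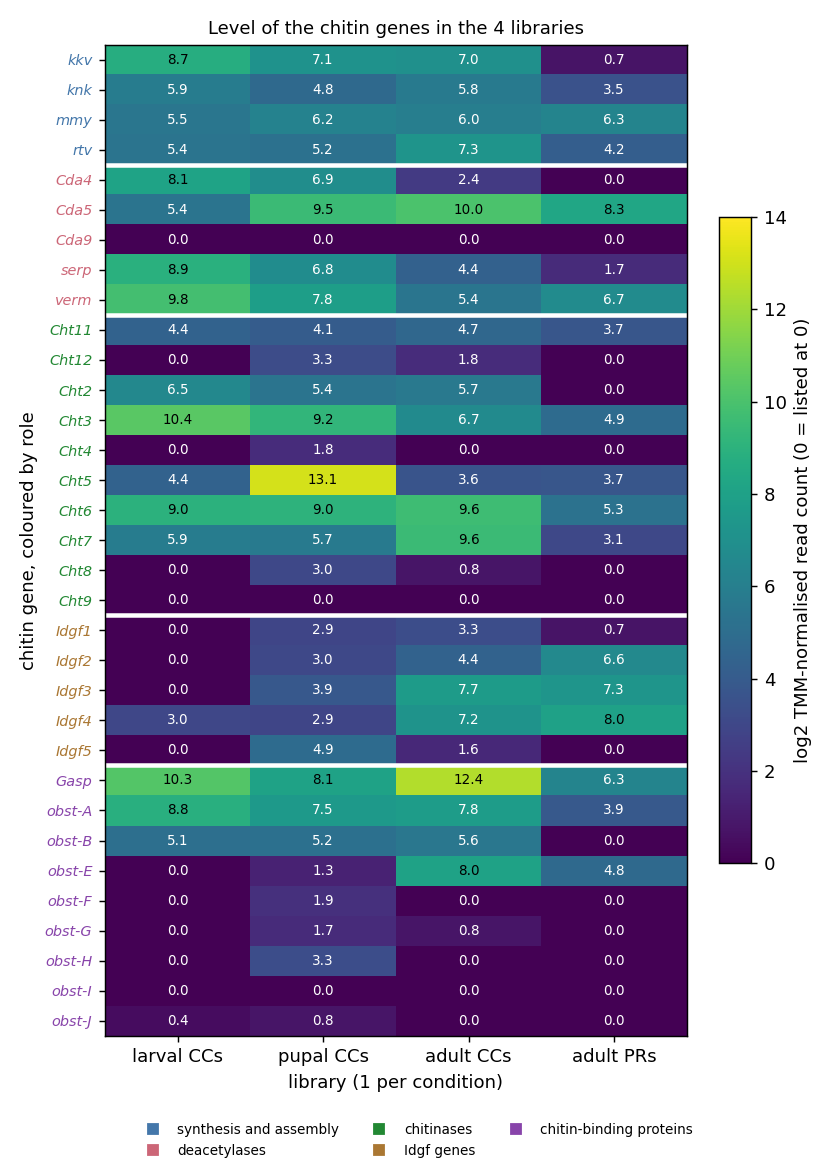
Level of each of the 33 chitin genes (rows, grouped and coloured by role) in the 4 libraries (columns), as log2 TMM-normalised read count with 0 for genes listed at 0. The brightest cells are Cht5 in pupal CCs at 13.09 and Gasp in adult CCs at 12.39.

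Among the genes of synthesis and assembly, kkv, which encodes the chitin synthase of cuticle and trachea, was found in all 3 CC libraries. Larval CCs had 427 units, pupal CCs 141 and adult CCs 129, while adult PRs had 1.66. The PR value is about 1 read by the step between low values, so no fold is given, and the difference of adult CCs over PRs was 4.55 on the log2(value + 4) scale. Adult and pupal CCs differed little (-0.13), and pupal over larval CCs (-1.57) was not called. The rtv gene, whose small membrane-anchored protein is needed to organise chitin fibres, had 41.5 units at the larval CC stage, 38.0 at the pupal and 152 at the adult one, and 18.3 units in PRs. For adult CCs over PRs it was called higher (2.81). In adult over pupal CCs it was not called (1.90), and the difference was smaller with equal library totals (1.11) and with median ratios set to 0 (1.61).

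Both other genes of this role passed no comparison. The knk gene, which encodes a chitin-protecting protein of the assembly zone, had 59.1, 27.4, 54.9 and 11.6 units in larval, pupal and adult CCs and adult PRs. An antisense RNA gene on the other strand covers 64.0% of its exon bases, and the pair cannot be separated in reads without strand. The mmy gene, whose enzyme makes the UDP-N-acetylglucosamine that the synthase uses and that protein glycosylation needs as well, was the most even member, with 44.4, 74.9, 63.1 and 79.7 units in the same order of libraries. Synthesis and assembly genes made up 9.44% of chitin gene units for larval CCs, 2.34% for pupal CCs, 4.18% for adult CCs and 8.73% for adult PRs.

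The deacetylases split by stage. The genes serp and verm encode secreted chitin deacetylases known for limiting the length of tracheal tubes, and lie next to each other in the genome with no protein-coding gene between them. For serp, larval CCs had 479 units, pupal CCs 111 and adult CCs 20.5, while adult PRs had 3.32. The verm gene had 887, 227 and 43.3 units at the larval, pupal and adult CC stage and 106 in PRs. Both stepped down at each CC stage: serp was called lower for pupal over larval CCs (-2.07) and for adult over pupal CCs (-2.24), and verm for adult over pupal CCs (-2.29). The pupal over larval difference of verm (-1.94) missed the rule and passed it under both other scalings of the libraries (-2.25 and -2.15). In adult PRs the pair parted, with verm above and serp below its adult CC level, though neither difference was called (-1.22 and 1.74 for adult CCs over PRs).

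Larval CCs had 279 units of Cda4, pupal CCs 116 and adult CCs 5.11, and adult PRs listed it at 0. Its fall in adult CCs relative to pupal CCs (-3.72) was called. Cda5 ran the other way, with 42.3 units for larval CCs, 738 for pupal CCs, 1051 for adult CCs and 310 for adult PRs. Its level in pupal CCs was 17.5-fold that in larval CCs, a difference of 4.00 that ranked 111 from the top of 14935 genes. Adult and pupal CCs differed by 0.51 as deposited and by -0.32 with equal library totals, so that neither can be called the higher. Its transcripts are long (10.8 kb of annotated exon), and per kb it stood at 68.4 units in pupal CCs, below verm at 96.0.

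**Figure D3:**
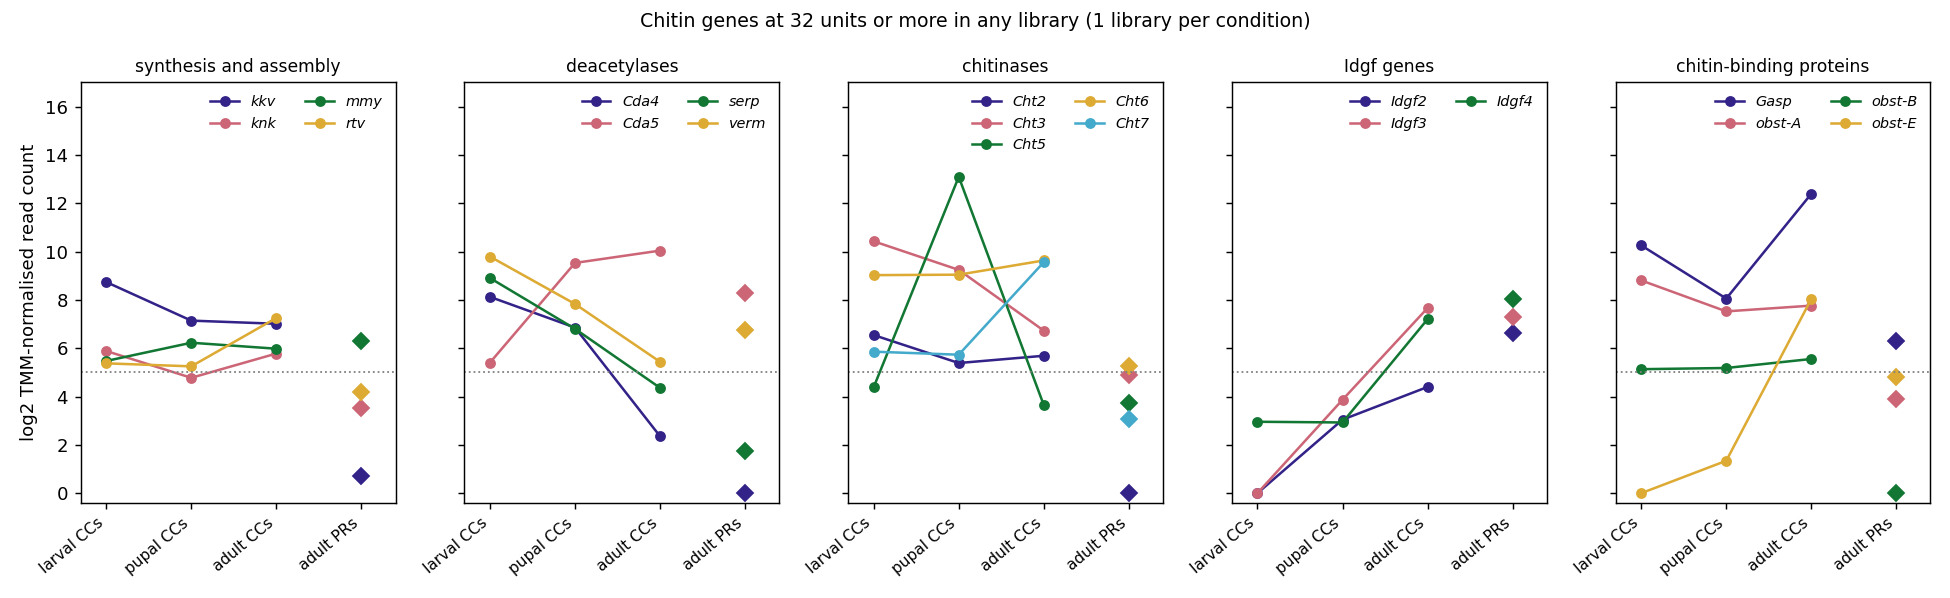
Level (y axis, log2 TMM-normalised read count) of the 20 chitin genes at 32 units or more in any library, in 5 panels by role, with lines joining the 3 CC stages, diamonds for adult PRs and a dotted line at 32 units. serp, verm and Cda4 step down over the CC stages, Cda5 steps up after the larval stage, Cht5 peaks at 8721 units in pupal CCs, and Gasp, obst-E and Cht7 are highest in adult CCs.

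Among the chitinases, Cht5 gave the sharpest pattern of the 33 genes. Cht5 is a counterpart of the enzyme that digests old cuticle at moults in beetles and other insects. Pupal CCs had 8721 units of Cht5, against 20.9 in larval CCs, while adult CCs had 12.4 and adult PRs 13.3 units. Its level in pupal CCs was 417-fold that in larval CCs, a difference of 8.45 that ranked 2 from the top of 14935 genes, after the uncharacterised CG13023 (11.85). In adult CCs Cht5 was 701-fold lower than in pupal CCs (-9.05), which ranked 1 from the bottom of all genes. Adult CCs and PRs differed by -0.07. By the smaller of its differences from the flanking stages Cht5 ranked 1 in the table and CG13023 ranked 2. Per kb Cht5 stood at 4110 units in pupal CCs, against 113 for Gasp, the next member.

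Other cell types were looked for at the stage of the Cht5 maximum. Markers of epidermis and hairs (6 genes) summed to 1338 units in pupal CCs and 483 in larval CCs, and 3 of the 6 were called higher in pupal CCs. Of these sums sn alone, which was not called, gave 1008 and 473 units. Hemocyte markers (7 genes) summed to 586 units in pupal CCs and 181 in larval CCs, with Hml and Pxn called higher. Col4a1, not called, gave 212 units of the pupal and 173 of the larval sum. Muscle markers (5 genes) summed to 1375 units in pupal CCs and 777 in larval CCs, with Mhc called higher (84.4 units, against 0 listed in larval CCs). Here sls, not called, gave 1268 units of the pupal sum and all 777 of the larval sum. Optic lobe glia markers (6 genes) summed to 286 units in pupal CCs and 154 in larval CCs, with Gat and wrapper called higher. The study reports repo, Eaat1 and wrapper as expressed in CCs themselves, so this list does not mark optic lobe glia alone. In pupal CCs these 3 had 47.9, 52.8 and 44.1 units. Bristle cell markers (5 genes) summed to 324 units in pupal CCs and 283 in larval CCs. Fat body markers (8 genes) summed to 73.7 units in pupal CCs and 4.18 in larval CCs, with apolpp called higher, and 5 of 7 gut markers were at 0 in pupal CCs. The part of these cells in the Cht5 value was not tested.

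Cht3, listed as Cht10 in the current annotation and related to a moulting chitinase of beetles, was highest in larval CCs. Its level was 1374 units for larval CCs, 605 for pupal CCs, 106 for adult CCs and 29.7 for adult PRs. The difference of adult over pupal CCs (-2.47) was called and that of pupal over larval CCs (-1.18) was not. With 22.7% it took the largest share of chitin gene units in larval CCs, though per kb (186 units) it stood below Gasp, verm, obst-A and serp. Cht6, a chitinase gene with 16.2 kb of annotated exon, had 520, 527 and 793 units in larval, pupal and adult CCs and 38.2 units in adult PRs. It passed no comparison between CC stages (0.02 for pupal over larval, 0.59 for adult over pupal) and was 20.8-fold higher in adult CCs than in PRs.

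Cht7 had the highest level per kb of the chitinase genes in adult CCs (191 units). Larval CCs had 57.9 units, pupal CCs 53.1 and adult CCs 757, while adult PRs had 8.30. Adult CCs stood 14.3-fold above pupal CCs (3.74) and 91.2-fold above adult PRs (5.95, rank 29 from the top). The fold over PRs rests on a low PR value, and with 16 units added that difference was 4.99. In beetles the Cht7 protein is needed to lay down ordered chitin rather than to digest it. Cht2 had 93.3, 41.8 and 51.5 units in larval, pupal and adult CCs. It was listed at 0 in adult PRs, so that adult CCs were called higher (3.79) with no fold given. Chitinases took 34.4% of chitin gene units for larval CCs, 83.0% for pupal CCs, 18.3% for adult CCs and 8.07% for adult PRs.

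Of the Idgf genes, Idgf2, Idgf3 and Idgf4 reached 32 units, each in an adult library only. Idgf3, at 0 in larval CCs, had 14.6 units at the pupal and 203 at the adult CC stage and 156 in PRs. Idgf4 had 7.76, 7.60 and 147 units in larval, pupal and adult CCs and 262 in PRs. Both were called higher in adult than in pupal CCs (3.48 and 3.70) and neither was called between adult CCs and PRs (0.37 and -0.82). The sign of the small Idgf3 difference turned with the scaling (-0.19 with median ratios set to 0). Idgf2, also at 0 in larval CCs, had 8.24 and 21.1 units in pupal and adult CCs and 97.9 in PRs. Its difference of adult over pupal CCs (1.03) was not called. It was the one member called lower in adult CCs than in PRs, at the edge of the rule (-2.02). Idgf1, Idgf2 and Idgf3 lie side by side in the genome.

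Idgf1 and Idgf5 stayed under 32 units. Idgf5 was highest in pupal CCs at 29.5 units, where Idgf1 had 7.52 units. In larval CCs 4 of the 5 Idgf genes were listed at 0. Idgf proteins are made in fat body and hemocytes in the fly, and markers of both were present in adults: hemocyte markers summed to 378 units in adult CCs and 49.5 in adult PRs, with 1 and 3 of 7 at 0, and fat body markers to 115 units in adult CCs and 130 in adult PRs, with 5 and 4 of 8 at 0. Hml, which marks hemocytes, had 151 units in adult CCs and 4.98 in adult PRs, Col4a1 had 149 and 31.5, and He was at 0 in every library. Their part in the Idgf levels was not tested.

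Gasp was the leading gene of the chitin-binding role. Its level was 1222 units for larval CCs, 266 for pupal CCs, 5370 for adult CCs and 79.5 for adult PRs. The pupal library was thus the low point of the CC stages: Gasp was called lower for pupal over larval CCs (-2.18), and its adult CC level was 20.2-fold the pupal one (4.32). Adult CCs stood 67.5-fold above adult PRs (6.01, rank 27 from the top). Per kb Gasp was the first member in larval CCs (519 units) and in adult CCs (2280 units, against 191 for Cht7, the next).

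The obst-E gene encodes a secreted chitin-binding protein known from the larval body wall, where it shapes cuticle growth. Larval CCs listed it at 0, pupal CCs had 2.53 units, adult CCs 263 and adult PRs 28.0. Adult CCs were called higher both over pupal CCs (5.35, rank 95 from the top) and over PRs (3.06).

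The obst-A gene, whose protein organises the chitin assembly zone, was present at all CC stages. Its 3 CC levels were 447 units (larval), 184 (pupal) and 217 (adult), and adult PRs had 14.9. The obst-B gene kept a low and even level, with 35.0, 36.3 and 47.0 units in larval, pupal and adult CCs, and was listed at 0 in adult PRs. Both were called higher for adult CCs over PRs (3.54 and 3.67), and neither differed between CC stages by the rule. Chitin-binding genes took 28.2% of chitin gene units for larval CCs, 4.21% for pupal CCs, 61.8% for adult CCs and 9.61% for adult PRs.

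Gasp and the deacetylases are best known from tracheae, so tracheal markers were read beside them. The 6 markers summed to 2193 units for larval CCs, 2448 for pupal CCs, 7576 for adult CCs and 687 for adult PRs. The main part came from sano, uif, pio and tyn, with pio alone at 5672 units in adult CCs. Of the other markers, trh had 2.78, 5.25 and 8.12 units in larval, pupal and adult CCs and was at 0 in adult PRs, and btl was at 0 in larval CCs and adult PRs, with 10.1 units in pupal CCs and 6.41 in adult CCs. The part of tracheal cells in the Gasp and deacetylase levels was not tested.

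The 10 genes that were above 0 but never reached 32 units were Cht4, Cht8, Cht11, Cht12, Idgf1, Idgf5, obst-F, obst-G, obst-H and obst-J. All 10 were above 0 in pupal CCs, against 2 in larval CCs, while 6 were in adult CCs and 2 in PRs. They summed to 22.5 units for larval CCs, 94.1 for pupal CCs, 45.4 for adult CCs and 14.9 for adult PRs. Cht11 was the steadiest, with 21.2, 17.1, 25.7 and 13.3 units in larval, pupal and adult CCs and PRs. Cht8, Cht12, Cht4 and Cht9 lie in a row in the genome, and the first 3 were listed at 0 in larval CCs and PRs and reached at most 9.56 units in pupal CCs. Over the whole table, too, the pupal library listed the most genes above 0 (9344 for larval CCs, 12649 for pupal CCs, 11557 for adult CCs and 8997 for PRs).

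In pupal over larval CCs, 2 chitin genes were called higher (Cda5 and Cht5) and 2 lower (serp and Gasp). The share of members called higher was 6.06%, against 4.64% of all 14935 genes. The share called lower was also 6.06%, against 1.07% of all genes. Among genes at 32 units in either library, 12.5% of 16 members and 11.2% of 6171 genes were called higher, and 12.5% of those members and 2.59% of those genes lower. Such genes can pass the minimum through the library where they are high, so these shares are descriptions. The median difference was 0.02 over the 33 members, against 0.35 over all genes.

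In adult over pupal CCs, 5 members were called higher (Cht7, Idgf3, Idgf4, Gasp and obst-E) and 5 lower (serp, verm, Cda4, Cht3 and Cht5), 15.2% in each direction. Of all genes 6.47% were called higher and 6.11% lower. At 32 units in either library the share of members was 26.3% of 19 in each direction, against 14.3% higher and 13.5% lower of 6767 genes. The median difference was 0 both over the 33 members and over all genes. With library totals made equal, all genes split into 572 higher and 1565 lower in place of 966 and 913, and the members into 5 and 6, with Idgf5 added to the lower ones. By role, 3 deacetylases were called lower and none higher, and 2 Idgf genes and 2 chitin-binding genes were called higher. These calls stood under both other scalings.

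In adult CCs over adult PRs, 9 members were called higher (kkv, rtv, Cht2, Cht6, Cht7, Gasp, obst-A, obst-B and obst-E) and 1 lower (Idgf2). This was 27.3% higher and 3.03% lower, against 9.31% and 4.91% of all genes. At 32 units in either library it was 52.9% and 5.88% of 17 members, against 21.9% and 11.5% of 6360 genes, and most of the members called higher reached 32 units through the adult CC library alone. The 9 comprised 2 of 4 genes of synthesis and assembly, 0 of 5 deacetylases, 3 of 10 chitinases, 0 of 5 Idgf genes and 4 of 9 chitin-binding genes. The median difference was 0.83 over the 33 members, against 0.33 over all genes. All genes split into 1390 higher and 734 lower as deposited, into 965 and 809 with equal totals and into 867 and 1020 with median ratios set to 0, while the same 9 and 1 members were called each time.

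**Figure D4:**
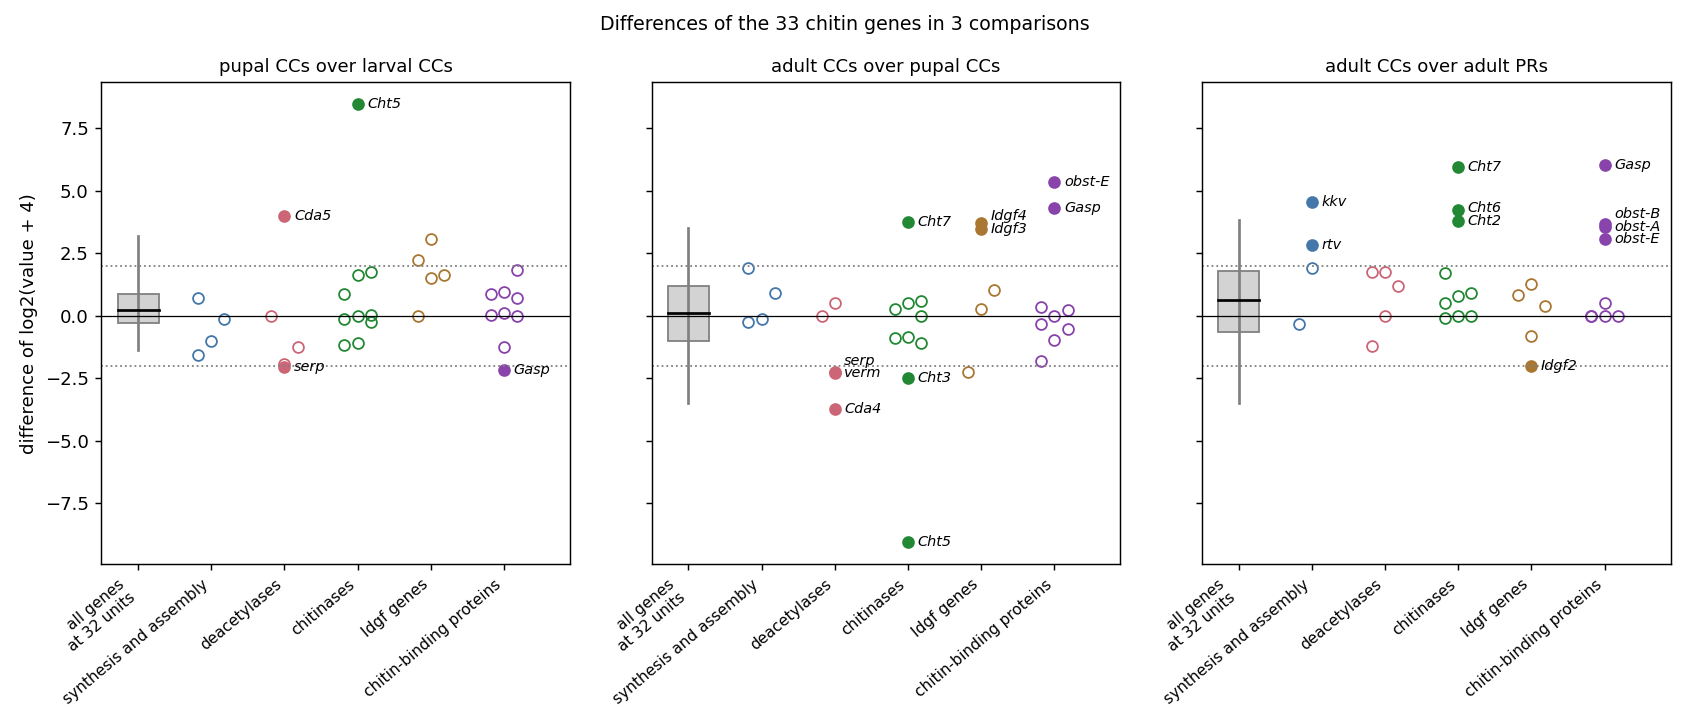
Difference of log2(value + 4) (y axis) of the 33 chitin genes by role in the 3 comparisons, with filled and named points for genes called by the rule, open points for the others and dotted lines at a difference of 2. The grey bars mark the median, quartiles and 5th to 95th percentiles of all genes at 32 units in either library; Cht5 lies at 8.45 in the first panel and at -9.05 in the middle one.

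The lens RNA in the PR library was set beside these values. The adult PR level was 1.82% of the adult CC level for retinin, 0.375% for the lens gene Crys, 32.6% for the lens gene Cpr72Ec, and 3.87%, 7.36% and 5.10% for the cone cell regulators ct, eya and sv. The remaining marker, pros, had 19.4 units in adult CCs and 33.2 in adult PRs. For members called higher in adult CCs the share was 1.10% for Cht7, 1.29% for kkv, 1.48% for Gasp, 4.82% for Cht6, 6.89% for obst-A, 10.6% for obst-E and 12.0% for rtv, and Cht2 and obst-B were at 0 in PRs. The part of lens or cone cell RNA in the PR values was not tested, nor that of pigment cell RNA in the adult CC values.

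Other genes of the pathway were listed by function, and 31 of 32 were found in the table. In pupal over larval CCs 3 were called higher and 1 lower, 9.68% and 3.23% against 4.64% and 1.07% of all genes. In adult over pupal CCs it was 7 and 3, 22.6% and 9.68% against 6.47% and 6.11%, and in adult CCs over PRs 6 and 2, 19.4% and 6.45% against 9.31% and 4.91%. Of the assembly factors, exp, which encodes a protein that the synthase needs to deposit chitin, had 176 units in adult CCs, against 11.6 in pupal CCs and 28.3 in PRs, and drd, a gene needed for the chitin matrix of the gut, had 725 units in adult CCs, against 10.4 in pupal CCs and 153 in adult PRs. The gut chitin synthase gene Chs2 was at 0 in 3 libraries and at 3.80 units in pupal CCs.

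Of 5 measured genes for the supply of the sugar nucleotide besides mmy, 1 was called in any comparison. This was nst, with 10.3 units in adult CCs, against 60.2 in pupal CCs. Of 7 genes of cuticle hardening, 3 were called higher in adult over pupal CCs (ple, Ddc and stw) and none lower. Ddc, whose enzyme makes dopamine, had 456 units in adult CCs, against 8.24 in pupal CCs and 83.0 in adult PRs, and ple, the tyrosine hydroxylase gene upstream of it, had 196 in adult CCs, against 37.3 in pupal CCs and 71.4 in PRs. The laccase-type gene stw had 2734 units in adult CCs, against 220 in pupal CCs and 281 in adult PRs.

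Of 9 regulators of cuticle genes, 3 were called in pupal over larval CCs (vvl and Eip93F higher, br lower) and 4 in adult over pupal CCs (grh and ftz-f1 higher, vvl and br lower), while EcR, usp, Hr38 and Hr46 were called in neither. The ecdysone-induced br had 822 units in pupal CCs, against 7121 in larval CCs, and Eip93F, an adult-stage specifier, had 1253 in pupal CCs, against 160 in larval CCs. vvl, a tracheal and epidermal factor, had 172 units in pupal CCs, against 15.6 in larval CCs, and 11.1 in adult CCs. Of the 9 regulators only vvl was called both higher over the larval (3.16) and lower after the pupal library (-3.54), as Cht5 was. A link between vvl and Cht5 was not tested. grh, a master regulator of barrier epithelia, had 1538 units in adult CCs, against 269 in pupal CCs and 182 in adult PRs.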

How the data were processed

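RNA of 4 sorted cell populations, 1 library each, had been amplified (NuGEN Ovation), prepared with Nextera and sequenced by the authors. The authors aligned the reads to dm3, took counts per Ensembl gene (the submitters' processing notes list Bowtie 1.0 and TopHat2 2.0), normalised the counts by TMM together with whole-animal data and deposited log2 values, with normalised counts of 1 or less as 0. Of 14959 rows, 24 repeat rows at 0 were left out. Whole reads could not be recovered, so no count test was run.

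The log2 values were turned back into linear units. Comparisons used log2(value + 4) and the rule given in the report (a difference of 2 or more and 32 units or more), without p-values. The rule was checked on simulated data that held counting noise only, so the check does not cover variation between libraries. Every member is named, those at 32 units or more with all 4 values. Members and lists were chosen with earlier results of these data known. Alternatives were 1 or 16 units added, equal library totals, median log2 ratios set to 0, no minimum or one 8 times higher, and an 8-fold rule. Exon lengths, neighbours and overlaps came from Ensembl release 115 (BDGP 6), another build than dm3, so coordinates are not given; all 33 members were matched, Cht3 under another symbol. The software was pandas 2.3.3 and numpy 2.4.6 on Python 3.11.15, and matplotlib 3.10.9 for plots. A further adult CC library and data of other tissues were not analysed here.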

Additional observations from a re-analysis of the deposited data

How the results depend on the processing

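Of 693 differences of single chitin genes under the alternatives, 663 kept their side of the rule, 22 fell below it and 8 newly passed it. Only 24 gene differences were called by the main rule, so all 22 losses fell on these. Most of the 663 belonged to differences that were never called. Of the called differences 0 changed sign. For pupal over larval CCs, 1 member was called lower with 16 units added (serp lost) and 0 under the 8-fold rule (serp and Gasp lost), and 4 were called higher with no minimum (Idgf3 and Idgf5 added). For adult over pupal CCs, a minimum 8 times higher left 3 higher (Idgf3 and Idgf4 lost) and 2 lower (serp, verm and Cda4 lost), and the 8-fold rule left 2 lower (serp, verm and Cht3 lost). For adult CCs over PRs, 4 were higher with that stricter minimum (kkv, rtv, Cht2, obst-A and obst-B lost), and the call of Idgf2 as lower was lost, leaving 0, with 16 units added, with that minimum and under the 8-fold rule. No shares over all genes are given for these settings, so these counts only describe the members. Equal library totals shifted all differences by -0.31 (pupal over larval), -0.83 (adult over pupal) and -0.29 (adult CCs over PRs) on the log2 scale, and median ratios set to 0 by -0.20, -0.29 and -0.57. Of 20 members at 32 units, 5 had their highest library change under either scaling (Cda5, mmy, obst-B, Idgf3 and Cht6). No paired analysis was possible because each condition had 1 library. The rough depth limits the 13 members under 32 units most.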

Other observations

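Beyond the genes chosen by symbol, 70 others are annotated in the deposited data for chitin binding or chitin metabolism. They were collected after values had been seen, and 10 of them were listed at 0 in all libraries. In pupal over larval CCs, 11 of the 70 were called higher and 0 lower, 15.7% and 0% against 4.64% and 1.07% of all genes, and their median difference was 0.69. Several encode mucin-like proteins with chitin-binding domains: Mur89F stood at 8.66 (log2 units) in pupal CCs and 1.58 in larval CCs, and Muc96D at 8.52 in pupal CCs and 1.41 in larval CCs. CG4835 stood at 7.98 in pupal CCs, while the larval library listed it at 0. In adult CCs these 3 genes were at 6.38, 6.29 and 6.06. In adult over pupal CCs 6 were called higher and 5 lower, 8.57% and 7.14% against 6.47% and 6.11% of all genes. In adult CCs over PRs 15 were called higher and 0 lower, 21.4% and 0% against 9.31% and 4.91% of all genes.

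Idgf6, listed under an older name that the symbol rule does not catch, followed Idgf3 and Idgf4 in being higher in adult CCs than in pupal CCs. It had 1954 units in adult CCs, against 97.3 in pupal CCs (4.27) and 347 in adult PRs (2.48), and 94.7 units in larval CCs. None of Idgf1 to Idgf5 was called higher in adult CCs over PRs. Peritrophin-A, also known as obst-D, stayed under 16 units in every library.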
